A study of Mus musculus with 20 samples.

Results

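The proteasome subunit genes are the 34 genes that encode the core particle and the regulatory particle of the proteasome (Psma1 to Psma7, Psmb1 to Psmb7, Psmc1 to Psmc6 and Psmd1 to Psmd14), out of 11200 mouse genes tested. Each gene was chosen by its symbol and is represented by its single-gene probe set with the highest mean log2 intensity over all 20 samples. No comparison of treatments entered the choice of probe set, but the genes were listed with earlier results of these data known. All 34 had such a probe set, and all 34 passed the filter on dim probe sets. RNA came from a muscle of the calf, the gastrocnemius. The mice had received JA16, an antibody against myostatin, or saline. JA16 was injected into the peritoneum at 0.12 mg per g body weight on day 1 and 0.09 mg per g on day 3, the control mice received saline on the same days, and muscle was frozen on day 5. There were 10 JA16 samples and 10 saline samples, 1 array each, and the labels used here give no genotype, strain, sex or age. They do not say that each sample came from its own mouse, so the p-values measure how these samples vary, which may in part be technical.

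The proteasome degrades proteins that carry ubiquitin chains and is the main route by which muscle fibres break down myofibrillar proteins. Its core particle is a barrel of stacked rings, with outer rings of alpha subunits that gate the entry and inner rings of beta subunits that hold the proteolytic sites. The regulatory particle caps the barrel: its base contains a ring of ATPases that unfold substrates, and its lid contains the enzyme that removes the ubiquitin chain. In wasting muscle, proteasome genes and the ubiquitin ligases Fbxo32 and Trim63 are known to be induced together, and myostatin is known as a secreted inhibitor of muscle growth.

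No proteasome gene passed the test between JA16 and saline muscle. With same-numbered samples paired (limma with the replicate number as a block), 0 of 34 members had an adjusted p under 0.05, where 0.277% of all genes tested did (31 of 11200, with 0.152% higher and 0.125% lower). Without the pairing 0 members passed as well, where 0.0357% of all genes did. The members' log2 fold changes, JA16 minus saline, lay between -0.15 (Psmc6) and 0.14 (Psmb2), with a median of 0.045 against -0.016 over all genes. At an unadjusted p under 0.05, 3 members were higher in JA16 (Psmb3, Psmb4 and Psmb6) and 0 were lower, where 16.2% of all genes had such a p, 7.49% higher and 8.76% lower. By the fit without pairing, 0 members had an unadjusted p under 0.05, against 2.65% of all genes. In whole-muscle RNA fewer cells of a type and less RNA per cell cannot be told apart.

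The 95% intervals of the 34 differences give their precision under the assumed pairing and for the chosen probe sets. The lowest bound was -0.38 (Psmc6) and the highest 0.33 (Psmd9) on the log2 scale, changes of -23.1% and 25.8%. The standard errors (SE) ran from 0.038 (Psmb3) to 0.12 (Psmd10). Without the pairing the SE ran from 0.064 (Psmd6) to 0.38 (Psmd7). Of 27 further probe sets of members that passed the filter, those at -0.66 (Psma6), -0.49 (Psma5) and -0.45 (Psmd4) lay below the lowest bound. Their SE were 0.26, 0.21 and 0.24. The intervals are not adjusted for the number of genes. In 0 of 34 members did the JA16 and saline intensities lie apart without overlap, as in 0% of all genes.

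**Figure D1:**
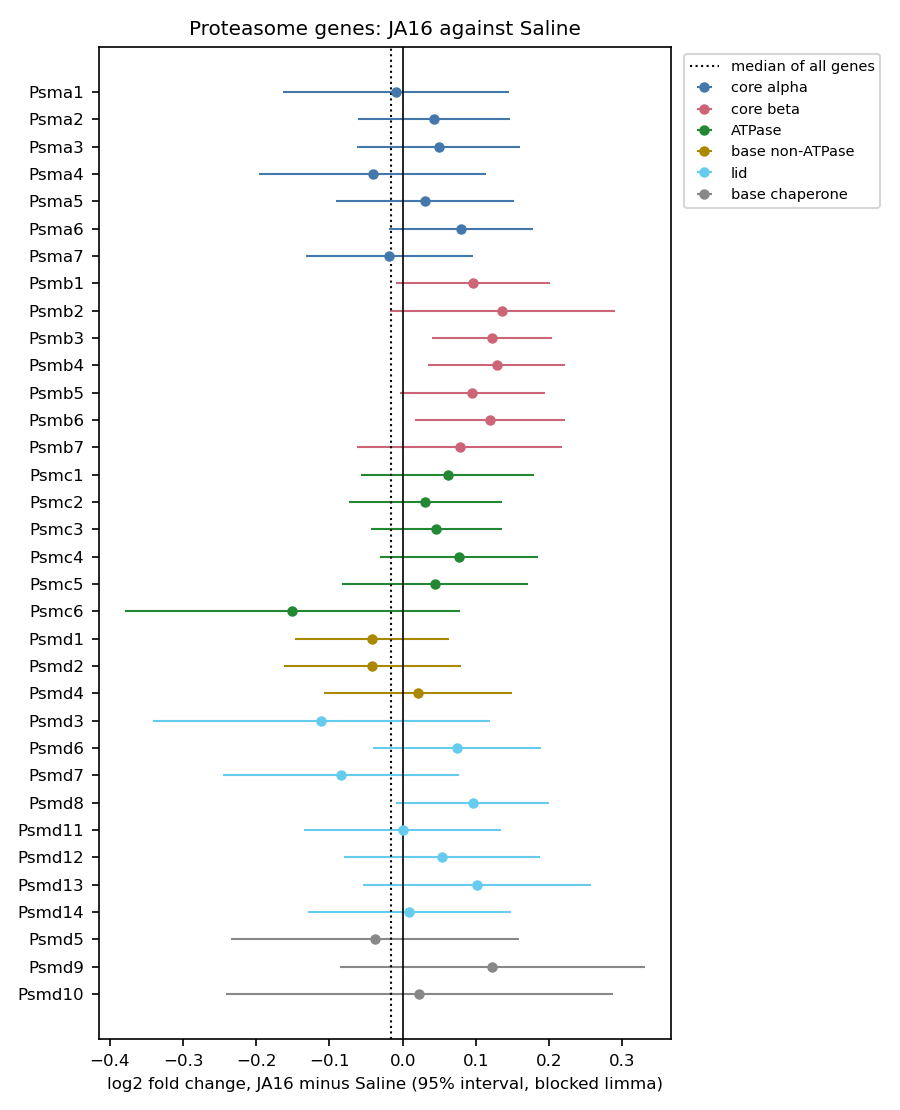
Log2 fold change of each of the 34 proteasome genes, JA16 minus Saline, with its 95% interval from blocked limma, coloured by class. The solid line marks 0 and the dotted line the median of all genes tested (-0.016). All 7 core beta genes lie to the right of 0, between 0.078 and 0.14, and the intervals of 31 of the 34 genes include 0.

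The beta subunits of the core were the one class with every member above 0. All 7 had a positive log2 fold change, with a median of 0.12, where 45.8% of all genes were above 0. Their adjusted p in blocked limma ran from 0.191 to 0.566, so none passed. Psmb3, a structural subunit of the inner ring, had the smallest p. Its intensity in JA16 samples had a lowest value of 7468, a median of 11308.5 and a highest value of 15396, against 6455, 10239 and 14044 in saline samples. The groups overlapped over most of their range, but the JA16 sample was the higher one in all 10 pairs, as for 0.58% of all genes. With Psma6 and Psmb6, 3 members were higher in JA16 in 9 or 10 pairs, as were 3.29% of all genes. Its log2 fold change was 0.12 (SE 0.038, 95% interval 0.040 to 0.20, blocked limma adjusted p = 0.191), a 1.09-fold level.

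Psmb5, Psmb6 and Psmb7 carry the proteolytic sites, with chymotrypsin-like, caspase-like and trypsin-like activity in that order. Psmb6 had a lowest, median and highest intensity of 7634, 10028 and 13365 in JA16 samples, against 7278, 9109 and 11964.5 in saline samples. It was higher in JA16 in 9 of 10 pairs, by 0.12 on average (SE 0.048, blocked limma adjusted p = 0.254). Psmb5 had 7492, 9401 and 12069 in JA16 samples, against 6959, 8511 and 10259 in saline samples. Its difference was 0.095 (SE 0.046, adjusted p = 0.319), with JA16 higher in 8 pairs. Psmb7 had 8052, 10929 and 12323 in JA16 samples, against 7809, 9981 and 12530 in saline samples, so that its highest value was a saline one. Its difference was 0.078 (SE 0.066, adjusted p = 0.566), with JA16 higher in 6 pairs. The largest fitted fold of the 3 catalytic genes was 1.09 (Psmb6), and the upper 95% bounds of Psmb6 and Psmb7 both lay at 0.22 on the log2 scale. The ranges overlapped between groups.

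Psmb2, a structural beta subunit, had the highest log2 fold change of the 34 genes, 0.14 (SE 0.072, adjusted p = 0.357). It ran from 2188 to 6412 in JA16 samples (median 3130), against 2006 to 5383 in saline samples (median 2829), and JA16 was higher in 6 pairs only. Psmb4 ran from 5739 to 13883 in JA16 samples (median 9337), against 5035 to 11823 in saline samples (median 8649.6), a difference of 0.13 (SE 0.044, adjusted p = 0.2). Psmb1 was at 0.096 (SE 0.049, adjusted p = 0.345). All 7 beta genes also stayed above 0 with quantile normalization, which makes the intensity distributions of all arrays alike, although their median was then 0.058. They were above 0 with centred array medians (median 0.19), in replicates 1 to 6 alone (0.081) and in replicates 7 to 10 alone (0.16).

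**Figure D2:**
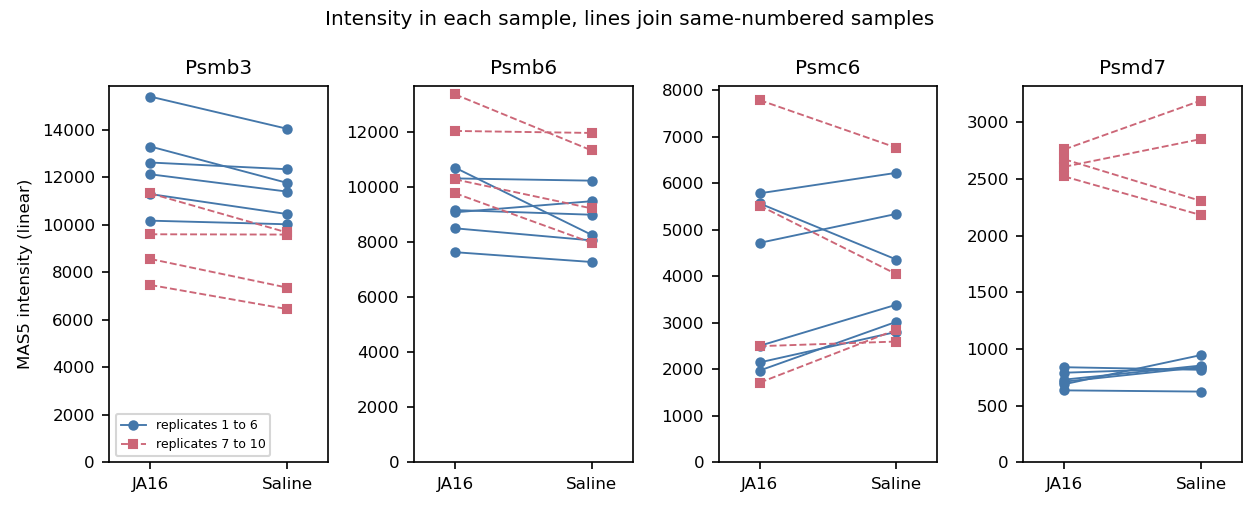
MAS5 intensity of Psmb3, Psmb6, Psmc6 and Psmd7 in each of the 20 samples, JA16 left and Saline right, on linear axes that start at 0. Lines join same-numbered samples, with circles for replicates 1 to 6 and squares for replicates 7 to 10. Psmb3 is higher in JA16 in all 10 pairs, while pairs differ from each other more than the groups do, most of all for Psmd7.

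The promoter windows of the beta genes are shown because this class was the one with all members on one side of 0. RefSeq windows (GRCm38.p6) from 250 bases before to 50 after the start were at hand for 28 of the 34 members, in 30 windows, and for 4 of the 7 beta genes. Proteasome genes are known targets of the factor encoded by Nfe2l1, which binds antioxidant response elements, and CCAAT boxes are common in their promoters. Capitals mark matches on either strand to TGACNNNGC, a core of the antioxidant response element, or to CCAAT. The 2 motifs share no overlap in these windows. Each sequence is written 5′ to 3′ along the gene.
Psmb3, chr11:97703184-97703483, plus strand: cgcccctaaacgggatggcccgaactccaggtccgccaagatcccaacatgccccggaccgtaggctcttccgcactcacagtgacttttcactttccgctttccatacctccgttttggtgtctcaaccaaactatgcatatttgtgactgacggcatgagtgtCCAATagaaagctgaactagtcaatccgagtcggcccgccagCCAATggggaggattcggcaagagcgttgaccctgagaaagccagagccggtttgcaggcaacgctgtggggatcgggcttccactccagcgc
Psmb4, chr3:94886909-94887208, minus strand: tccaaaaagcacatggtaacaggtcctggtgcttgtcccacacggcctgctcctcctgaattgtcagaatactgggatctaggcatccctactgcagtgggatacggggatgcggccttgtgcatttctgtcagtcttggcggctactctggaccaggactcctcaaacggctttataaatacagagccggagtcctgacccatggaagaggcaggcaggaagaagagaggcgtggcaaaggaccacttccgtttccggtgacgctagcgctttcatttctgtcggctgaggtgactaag
Psmb5, chr14:54617946-54618245, minus strand: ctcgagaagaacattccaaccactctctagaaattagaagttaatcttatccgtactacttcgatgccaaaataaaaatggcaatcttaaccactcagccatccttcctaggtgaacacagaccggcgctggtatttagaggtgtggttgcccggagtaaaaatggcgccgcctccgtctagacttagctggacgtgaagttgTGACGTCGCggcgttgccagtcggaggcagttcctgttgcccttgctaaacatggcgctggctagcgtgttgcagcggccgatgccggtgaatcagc
Psmb6, chr11:70525107-70525406, plus strand: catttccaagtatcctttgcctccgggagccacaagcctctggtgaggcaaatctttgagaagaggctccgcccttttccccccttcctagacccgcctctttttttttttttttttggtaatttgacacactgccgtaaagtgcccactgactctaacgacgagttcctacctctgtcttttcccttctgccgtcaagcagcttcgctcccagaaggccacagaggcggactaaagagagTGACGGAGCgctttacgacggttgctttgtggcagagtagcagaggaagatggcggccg

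Psmb3 held 2 CCAAT boxes, beginning 85 and 43 bases before the start. Psmb5 held TGACGTCGC beginning 47 bases before the start, Psmb6 held TGACGGAGC beginning 9 bases before it, and the Psmb4 window held neither motif. Over all members, 5 of 30 windows (16.7%) held TGACNNNGC, against 12.4% of all 32851 promoter windows, and 11 of 30 (36.7%) held CCAAT, against 37.4%. The members' shares were therefore close to those of promoters in general. A match is a run of letters and not a measured binding site.

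The alpha subunits of the outer ring lay on both sides of 0. Of 7 genes, 4 were above 0 and 3 below (Psma1, Psma4 and Psma7), with a median of 0.031, and 0 passed. Psma6 had the smallest p of this class and its highest difference. It ran from 9491 to 15387 in JA16 samples (median 11296), against 7609 to 12955 in saline samples (median 11166). Its difference was 0.080 (SE 0.046, blocked limma adjusted p = 0.397), with JA16 higher in 9 of 10 pairs. It was 0.0070 with quantile normalization and -0.17 when all its probe sets were averaged. Psma4 had the lowest difference, -0.041 (SE 0.073, adjusted p = 0.814), with 1734.5 to 4807 in JA16 samples (median 2476) and 2093 to 3930 in saline samples (median 2450). The other 5 alpha genes lay between -0.019 and 0.049. The class median was -0.0065 with quantile normalization.

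The ATPases of the base unfold the substrate and thread it into the core. Of 6 genes, 5 were above 0 and only Psmc6 below, with a median of 0.045, and 0 passed. Psmc4 had 5709, 11035 and 13737 as lowest, median and highest intensity in JA16 samples, against 5169, 9771 and 12739 in saline samples. Its difference was 0.077 (SE 0.051, blocked limma adjusted p = 0.455), higher in JA16 in 8 pairs. Its 2 probe sets differed by 0.077 and 0.12. Psmc1, Psmc2, Psmc3 and Psmc5 lay between 0.031 and 0.061. Psmc6 was the lowest of all members at -0.15 (SE 0.11, 95% interval -0.38 to 0.078, adjusted p = 0.492), with JA16 lower in 7 of 10 pairs. Its intensity ran from 1715 to 7787 in JA16 samples (median 3613) and from 2598 to 6765 in saline samples (median 3718).

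Replicates 1 to 6 and replicates 7 to 10 are 2 sets of arrays that differ in their beta-actin control ratios. Within these sets Psmc6 varied more than any other member. In both groups its probe set read 4047 to 7787 in replicates 3, 4, 5, 7 and 10 and 1715 to 3390 in the other replicates, with no value between. Its SD within array set and group was 0.70 on the log2 scale, against 0.12 to 0.34 for the other 33 members. A second Psmc6 probe set read 712 to 1488 in replicates 3, 4, 5, 7 and 10 and 152 to 634 in the others. The difference between these pairs was therefore shared by both groups and by 2 probe sets, and larger than any between JA16 and saline. It was not particular to Psmc6. The same replicates lay apart from the others in both groups for Cops2, Fbxo30 and Uba6, which are not members. Cops2 read 2098 to 5410 in replicates 3, 4, 5, 7 and 10 and 709 to 1712 in the others. Fbxo30 read 694 to 1322 against 188 to 574, and Uba6 read 405 to 747 against 143 to 363. These pairs were singled out after their values were seen, and the cause was not tested.

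The base also holds Psmd1 and Psmd2, its large scaffold subunits, and Psmd4, a receptor for ubiquitin chains. Psmd1 and Psmd2 were each at -0.042 (SE 0.049 and 0.057) and Psmd4 at 0.021 (SE 0.060), and none passed in blocked limma (adjusted p = 0.695, 0.744 and 0.899). Psmd1 ran from 5112 to 8580 in JA16 samples (median 6557), against 5246 to 8394 in saline samples (median 6995). Psmd4 ran from 2613 to 10133 in JA16 samples (median 3981) and from 2655 to 10837 in saline samples (median 3918). Its dimmer probe sets were at -0.076 and -0.45 (SE 0.090 and 0.24).

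The lid holds 8 of the genes. Of these 6 were above 0 and 2 below (Psmd3 and Psmd7), with a median of 0.032, and 0 passed. Psmd14 encodes the deubiquitinase that cuts the chain from the substrate, and Psmd7 its partner. Psmd14 was at 0.0091 (SE 0.065, blocked limma adjusted p = 0.963), with 3258 to 5666 in JA16 samples (median 3901) and 3622 to 4885 in saline samples (median 3930). Psmd7 was at -0.085 (SE 0.076, adjusted p = 0.594). The others are scaffold subunits. Psmd8 had the smallest p, with 8090.5 to 17533 in JA16 samples (median 11576) against 7819 to 16003 in saline samples (median 10072), a difference of 0.095 (SE 0.049, adjusted p = 0.345). Psmd13 was the highest of the lid at 0.10 (SE 0.073, adjusted p = 0.499), with 1134 to 4707.5 in JA16 samples and 1081 to 3616.5 in saline samples. The lid genes Psmd6, Psmd11 and Psmd12 lay between 0.00023 and 0.074. Psmd3 was the lowest at -0.11 (SE 0.11, adjusted p = 0.627), with 1294 to 3485 in JA16 samples and 1471 to 3449 in saline samples.

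Psmd5, Psmd9 and Psmd10 encode chaperones that assemble the base and are not part of the finished particle. Psmd9 was at 0.12 (SE 0.098, blocked limma adjusted p = 0.544), with a lowest, median and highest intensity of 419, 783 and 1489 in JA16 samples, against 469, 660 and 1059.5 in saline samples. Its other 2 probe sets were at -0.038 and -0.13. Psmd5 was at -0.038 (SE 0.092, adjusted p = 0.874), with 789 to 1825 in JA16 samples and 838.5 to 1845 in saline samples. Psmd10 was at 0.023 with the widest error of all members (SE 0.12).

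Over all 34 genes, 25 had a log2 fold change above 0, where 45.8% of all genes, not matched for brightness, did. This count depended on how the arrays were scaled. With quantile normalization 18 of 34 were above 0 (median 0.0048), against 51.2% of all genes (median 0.0046), and with centred medians 31 of 34 (median 0.11), against 61.3% (median 0.054). For 17 members 1 or more further probe sets passed the filter, 27 in all, and 11 of these 27 were above 0. With all probe sets of a gene averaged, 19 of 34 members were above 0 (median 0.020).

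The direction of the members' differences varied from pair to pair. In pair 1 the JA16 sample was the higher one for 4 of 34 members (median difference -0.14), and in pair 7 for 32 of 34 (median 0.22). In the other 8 pairs it was higher for 14 to 29 members. Of all genes, 45.7% to 54.2% were higher in JA16 in each pair. In pair 1, 0 of 7 alpha genes and 0 of 8 lid genes were higher, and in pair 7 all 7 alpha, all 7 beta, all 6 ATPase and all 8 lid genes were. With quantile normalization the counts were 6 in pair 1 and 30 in pair 7. Without pair 1 the median over members was 0.065 and 10 members had an unadjusted p under 0.05, as did 2001 of all 11200 genes. Without pair 2 that count was 6, beside 1869 of all genes, and without pair 7 the median was 0.023. In every one of these fits 0 members passed the adjusted threshold.

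**Figure D3:**
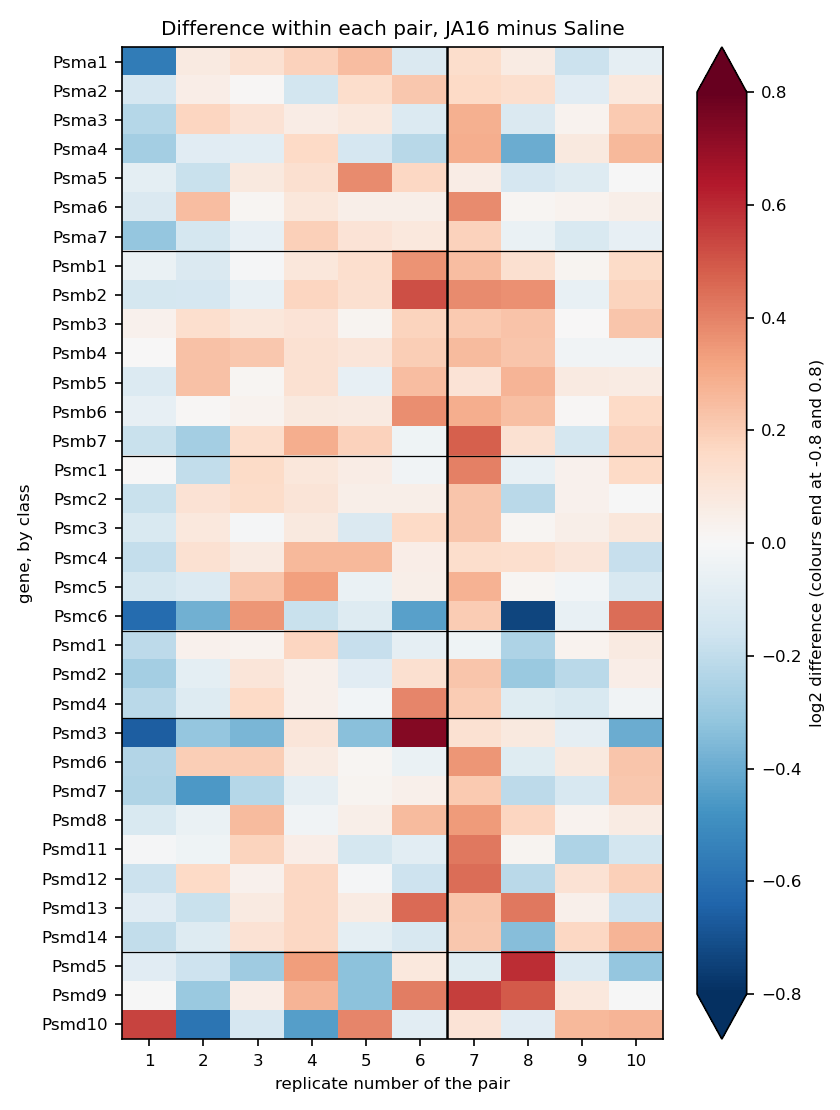
Log2 difference between the JA16 and the Saline sample of each same-numbered pair (columns) for the 34 proteasome genes (rows, by class), red where JA16 is higher and blue where it is lower. The vertical line separates replicates 1 to 6 from replicates 7 to 10. Pair 1 is blue for 30 genes and pair 7 is red for 32.

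The summed intensity of 6 macrophage and leukocyte markers was highest among JA16 samples in replicate 1 (32318, the other 9 at 8577 to 19230) and highest among saline samples in replicate 7 (31129, the other 9 at 11134 to 21565). In these 2 pairs most members were lower in the sample with the high marker sum. Other pairs went either way. In pair 2 the sum was 18593 in JA16 and 21565 in saline, with 14 members higher in JA16. In pair 9 it was 19230 in JA16 and 13867 in saline, with 19 members higher. The same 2 samples also had the highest fibroblast marker sums of their groups (17238 in JA16 replicate 1, 22531 in saline replicate 7). JA16 replicate 1 had the highest adipocyte marker sum of its group as well (18207, the other 9 at 4678 to 10351). Saline replicate 7, at 10645, did not (highest saline sum 11320). Their muscle fibre marker sums were 89935 in JA16 replicate 1 (lowest JA16 sum 89334) and 88879 in saline replicate 7, the lowest saline sum. The part of any of these cells in the result was not tested. Between groups the leukocyte marker sum overlapped, with a median of 12354 in JA16 and 13368.5 in saline samples. The array medians were 50.8 in JA16 and 45.2 in saline for pair 1, and 62.1 in JA16 and 77.1 in saline for pair 7. For pair 8 the array medians were 50.5 in JA16 and 63.1 in saline, with 19 members higher. For pair 2 they were 48.0 in JA16 and 43.1 in saline, with 14 members higher. The part of the array medians was tested only through the scalings above.

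The 20 arrays fall into sets of 6 and 4 pairs by their beta-actin controls, where the probe set at the 3′ end is set against that at the 5′ end as a measure of RNA and labelling quality. Replicates 1 to 6 of either group had log2 ratios of 1.33 to 1.84, and replicates 7 to 10 had ratios of 0.48 to 0.64. In 8 of 10 pairs the JA16 sample had the lower of the 2 ratios, and the mean difference in this beta-actin ratio was -0.13. Array medians ran from 38.9 to 77.1. The 5 muscle fibre markers summed to 89334 to 127844 in JA16 and 88879 to 112575 in saline samples. All 5 slow fibre markers were below 0 (median -0.77) and 0 passed, with JA16 replicate 3 the lowest sample at a sum of 3314. Markers of endothelium (4 of 4), fibroblasts (4 of 4), Schwann cells (3 of 3 measured), adipocytes (2 of 2 measured) and blood (1 of 1 measured) were also all below 0 and 0 passed, and their part in the members' values was not tested.

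Member levels differed between these array sets far more than between groups. The difference in mean log2 level, replicates 7 to 10 minus replicates 1 to 6, ran from -0.82 (Psmc4) to 1.77 (Psmd7), and in 31 of 34 members it was larger in size than the difference between JA16 and saline. With both groups together, Psmd7 intensities of replicates 1 to 6 lay at 625 to 947, and those of replicates 7 to 10 at 2181 to 3191. Psmd4 and Psmd13 were higher by 1.31 and 1.17 in replicates 7 to 10, and Psmb4 was lower by 0.78. The pairing keeps this difference out of the comparison of JA16 with saline, since each pair lies within 1 set.

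**Figure D4:**
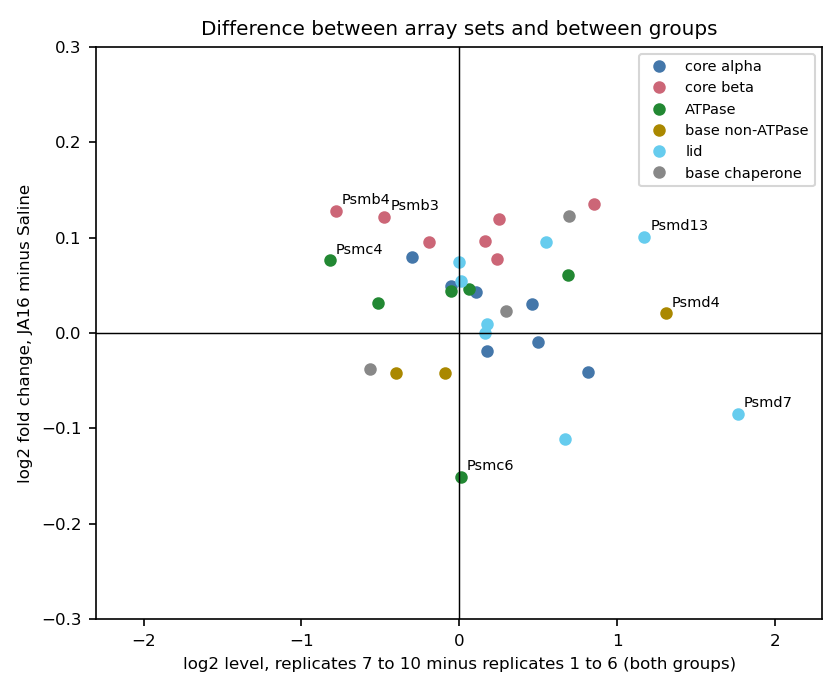
For each of the 34 proteasome genes, the difference in mean log2 level between replicates 7 to 10 and replicates 1 to 6 over both groups (horizontal) and the log2 fold change of JA16 minus Saline (vertical), coloured by class. The axes differ in scale. The horizontal values run from -0.82 to 1.77, the vertical ones from -0.15 to 0.14.

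Within the sets, the median over members was 0.020 for replicates 1 to 6 and 0.086 for replicates 7 to 10. Psmb3 was at 0.094 (SE 0.050) and 0.16 (SE 0.082) in the 2 sets, and Psmc6 at -0.23 (SE 0.11) and -0.035 (SE 0.18). A term for the difference between sets had an unadjusted p under 0.05 in 0 of 34 members (lowest blocked limma adjusted p = 0.999). The SE of this term ran from 0.080 (Psmb3) to 0.26 (Psmd10), so small differences between sets could be missed. The share of all genes with such a p was not taken, so the count is not read as a result about the members. With the beta-actin ratio as a covariate beside the pairing, the median over members was 0.056 and the beta median 0.092, and 0 members passed.

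Genes that act with the proteasome were taken from lists by role. A gene was counted as measured where a single-gene probe set passed the filter, here and in the marker lists above. The immunoproteasome has inducible subunits that replace the catalytic beta subunits in immune cells and under interferon. Its 3 genes were all measured and 0 passed. Psmb11 of the thymoproteasome, in the same list, had 1 single-gene probe set, which did not pass the filter. Psmb10 ran from 1121 to 2267 in JA16 samples (median 1735), against 1102 to 2070 in saline samples (median 1562). Its difference was 0.18 (SE 0.080, blocked limma adjusted p = 0.297), higher in JA16 in 8 pairs. Psmb8 was at 0.081 (SE 0.19) and Psmb9 at -0.053 (SE 0.19), the second with 109.5 to 541 in JA16 samples and 147 to 371 in saline samples. Psmb8 read 952 in JA16 replicate 1, which had the highest leukocyte marker sum of its group, and 223 to 439 in the other JA16 samples, against 251 to 476 in saline samples.

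Of the activators and the inhibitor, 4 of 5 were measured and 0 passed. Psme4, which encodes a large activator that caps the core without ATP, ran from 4520.5 to 11919 in JA16 samples (median 7226), against 6197 to 11363 in saline samples (median 8131.5). Its difference was -0.23 (SE 0.090, blocked limma adjusted p = 0.243), lower in JA16 in 7 of 10 pairs. The 4 other probe sets of Psme4 above the filter were also below 0, between -0.54 and -0.16. All 5 assembly factors of the core were measured, 4 of them above 0 and 0 called, and Psmg2 had the smallest p. Psmg2 ran from 2024 to 3020.3 in JA16 samples (median 2682), against 1762 to 2763 in saline samples (median 2341), a difference of 0.14 (SE 0.060, adjusted p = 0.275).

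Of 13 bound ubiquitin receptors, deubiquitinases and other partners, 11 were measured, with 5 above 0 and 0 called. The shuttle receptor gene Ubqln2 had 1582, 2067 and 2610 as lowest, median and highest intensity in JA16 samples, against 1901, 2538 and 2691 in saline samples. Its difference was -0.24 (SE 0.087, blocked limma adjusted p = 0.217), with JA16 the lower sample in 9 of 10 pairs. Uba6, an enzyme that activates ubiquitin, was the 1 measured gene of its list of 6 and was at -0.15 (SE 0.12, adjusted p = 0.538).

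A further list of 6 held transcription factors of proteasome genes and proteins that process these factors. Of these genes 4 were measured (Nfe2l1, Nfe2l2, Ngly1 and Vcp), and 0 passed. Nfe2l1, whose product drives proteasome genes when the proteasome is inhibited, had 6952, 9307 and 11620 as lowest, median and highest intensity in JA16 samples, against 7796, 8630 and 11465 in saline samples. Its difference was -0.014 (SE 0.045, 95% interval -0.11 to 0.082, blocked limma adjusted p = 0.909). Nfe2l2, the related factor of the oxidative stress response, had 1347, 1628 and 1947 in JA16 samples, against 1626, 1856 and 2101 in saline samples. Its difference was -0.23 (SE 0.075, adjusted p = 0.191), lower in JA16 in 9 of 10 pairs.

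**Figure D5:**
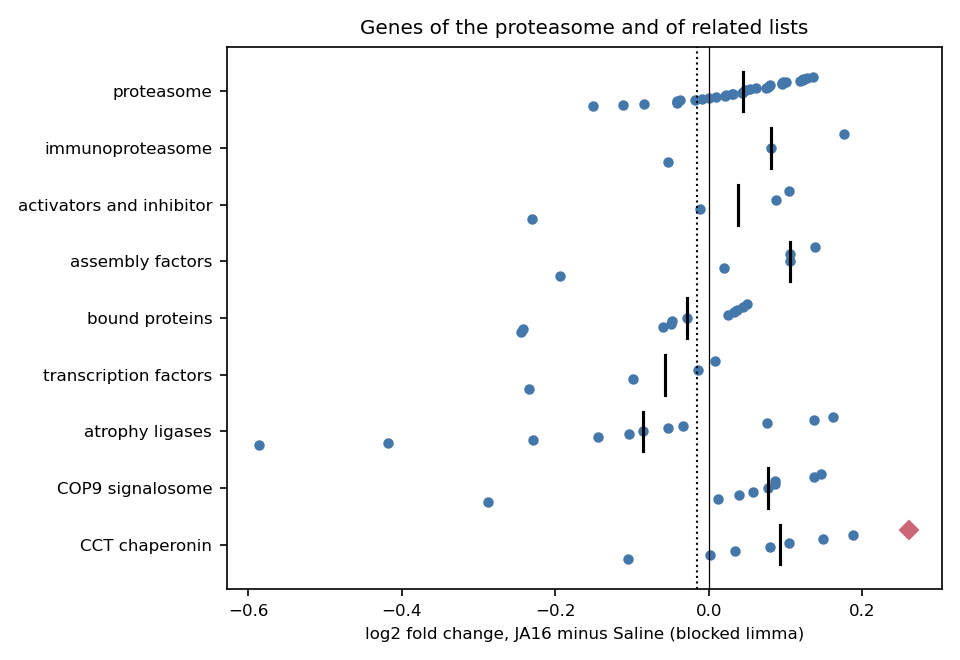
Log2 fold change, JA16 minus Saline, from blocked limma for the 34 proteasome genes and for measured genes of 8 related lists, 1 point a gene. Bars mark list medians, the dotted line the median of all genes (-0.016), and the diamond the 1 gene called, Cct5. Proteasome points lie between -0.15 and 0.14, and atrophy ligases reach -0.59 (Fbxo32).

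The ubiquitin ligases mark muscle proteins for the proteasome, and the 1 with the largest difference was Fbxo32. Fbxo32 ran from 2361 to 5786 in JA16 samples (median 4407), against 4396 to 10157 in saline samples (median 6351), and was lower in JA16 in all 10 pairs. Its difference was -0.59 (SE 0.12, blocked limma adjusted p = 0.0579), below the 95% interval of every proteasome gene by its chosen probe set. Its own 95% interval, -0.84 to -0.33, overlapped those of Psmc6 (-0.38 to 0.078) and Psmd3 (-0.34 to 0.12). Trim63 ran from 3199 to 6111 in JA16 samples (median 5367), against 4173 to 7516.5 in saline samples (median 5315), a difference of -0.10 (SE 0.078, adjusted p = 0.514). Of 11 measured genes of this list, 8 were below 0 and 0 passed, with a median of -0.085.

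Other complexes of several subunits were set beside the proteasome. The COP9 signalosome, whose subunits resemble those of the lid, had 8 of 9 genes above 0 (median 0.077) and 0 called, and Cops7a had the smallest p. Cops7a ran from 1905 to 3244 in JA16 samples (median 2398), against 1628.5 to 2705 in saline samples (median 2401), a difference of 0.15 (SE 0.057, blocked limma adjusted p = 0.243). The CCT chaperonin, which folds actin and tubulin, had 7 of 8 genes above 0 (median 0.092). Cct5 ran from 4090.2 to 5408 in JA16 samples (median 5108), against 3476 to 4811 in saline samples (median 4187.5). It rose by 0.26 (SE 0.045, adjusted p = 0.0235), higher in JA16 in all 10 pairs, and was the only gene called among the 34 members and the 9 lists set beside them. It did not pass without the pairing (limma adjusted p = 0.99983), nor without any 1 of pairs 3, 4, 6, 7, 8 and 9 (adjusted p = 0.0508 to 0.0803). With quantile normalization the medians were 0.054 for COP9 and 0.031 for CCT.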

How the data were processed

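RNA from 20 gastrocnemius samples (10 JA16, 10 saline) was measured on single-colour Affymetrix arrays with 45101 probe sets. The deposited values are intensities computed with MAS5, per the submitters' processing notes. The trimmed mean of each array, leaving out 2% of probe sets at each end, was 500.0, a scaling that makes levels relative to the array. The number of arrays limits the precision. Of the probe sets, 34945 name 1 gene, 932 several and 9160 none in the platform annotation, and 64 are controls.

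Values at or below 0 (5 in all) were set to 0.1 before log2. Probe sets were kept at a mean log2 intensity of at least 5.65, the median over all probe sets, and the brightest single-gene probe set stood for a gene, which left 11200 genes. limma 3.58.1 in R 4.3.3 was fitted with an intensity trend, the replicate number as a block and Benjamini-Hochberg adjustment over all genes. Intervals are 95%. The fit was tested on simulated data that kept the replicate blocks of the real fit, so this test cannot check the pairing. In all 10 pairs same-numbered samples deviated together from their group means (correlation 0.38 to 0.79, against a median of -0.11 for other pairings). The other pairings include samples of different array sets, so this contrast cannot tell pairing by number from a shared array set. The numbers were taken as pairing the samples, as laid down with the choice of the genes, and the labels do not explain them.

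Per-sample values were given for the members with the smallest p and the highest and lowest difference in each class, the catalytic subunits and Psmc4. In the pathway lists they were given for the gene with the smallest p and for Nfe2l1, Nfe2l2, Psmb8, Psmb9, Psmb10, Psme4, Fbxo32 and Trim63. The members and lists were chosen with earlier results of these data known. Alternatives were other normalizations, filters, probe set rules, an added offset of 16, the beta-actin ratio as covariate, each array set alone, no block, and each pair left out.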

Additional observations from a re-analysis of the deposited data

Results flagged for a closer look

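In 2 of 94 sets of 1 gene in 1 group, a sample lay apart from the other 9 by more than Dixon's critical value, where chance gives about 1 in 20 (4.7 of 94). Psmb8 read 952.4 in JA16 replicate 1, against 223.0 to 438.7 in the other JA16 samples. On the log2 scale this is a gap of 0.534 of the range. The log2 fold change of Psmb8 was 0.081 with all pairs and -0.093 without pair 1. Psmd14 read 4885.3 in saline replicate 7, against 3622.1 to 4130.1 in the other saline samples. On the log2 scale this is a gap of 0.561 of the range. The log2 fold change of Psmd14 was 0.0091 with all pairs and -0.014 without pair 7. These are the samples with the highest leukocyte marker sum of their groups, and the part of those cells in either value was not tested.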

How the results depend on the processing

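The count of members called was 0 under every alternative run. The count of all genes called, 31 with the replicate block, was 4 with no replicate block, 10 with arrays centred on their medians, 1 with the beta-actin ratio as covariate, 0 in replicates 1 to 6 alone (1099 at an unadjusted p under 0.05), 0 in replicates 7 to 10 alone (799), and 10 to 51 with 1 pair left out. Members at an unadjusted p under 0.05, 3 in the main setting, numbered 0 with no replicate block, 1 with quantile normalization, 1 in replicates 1 to 6, 0 in replicates 7 to 10 and 2 to 10 with 1 pair left out. The sign of some small differences, 0 of them called, turned. The cases given below come from the genes picked for per-sample values and are not a full list. With quantile normalization Psma3, Psma5, Psmc2, Psmc3, Psmd11 and Psmd14 also went from above to below 0. With centred arrays Nfe2l1 was at 0.055, Psma4 at 0.028, Psmd1 at 0.027, Psmd5 at 0.031 and Psmb9 at 0.016. With quantile normalization Psmb9 was at 0.0083 and Psmd4 at -0.010. With the beta-actin ratio Nfe2l1 was at 0.00022, Psma4 at 0.011, Psmb8 at -0.13 and Psmd4 at -0.018. With probe sets averaged Psma6 was at -0.17, Psmd4 at -0.17 and Psmd9 at -0.016. In replicates 1 to 6 Psmb9 was at 0.085. In replicates 7 to 10 Nfe2l1 was at 0.034, Psma4 at 0.059, Psmb8 at -0.27, Psmd4 at -0.011, Psmd5 at 0.018 and Uba6 at 0.072. With 1 pair left out Nfe2l1 ran from -0.035 to 0.0028, Psmb8 from -0.093 to 0.18, Psmb9 from -0.24 to 0.028 and Psmd4 from -0.021 to 0.047. Cct5 also missed the threshold with centred arrays (limma adjusted p = 0.177), with the beta-actin ratio (0.185) and in each array set alone (0.389 in replicates 1 to 6, 0.681 in replicates 7 to 10). Fbxo32 passed it with quantile normalization (adjusted p = 0.0441) and without pair 2 (0.0428) or pair 10 (0.0443). The cause of these changes was not tested. Array sets alone hold fewer samples.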
